A study of Mus musculus with 6 samples.

Results

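The interferon-stimulated genes (ISGs) are the genes that a cell switches on when interferon reaches its surface, and the 36 examined here span the sensors, transcription factors and antiviral effectors of that program. They were listed by symbol, with earlier results of these data known, and all 36 were found among the 55401 genes counted in each library. Their comparison addressed whether an innate antiviral response accompanied loss of ATRX, a chromatin remodeler of heterochromatin. Tibias were taken from 8-week-old male mice, 3 of each genotype (Atrx-cKO and control), and each gave 1 library. Atrx-cKO mice were *Osterix-Cre; Atrx*f/y, and control mice were *Atrx*f/y, so that both genotypes carried the floxed allele and only the Atrx-cKO mice carried the transgene. *Osterix-Cre* is a Tet-off recombinase driven in preosteoblasts, and all mice were described as kept on doxycycline, which holds the recombinase off, until 3 weeks of age. No library here came from a mouse with *Osterix-Cre* and an intact *Atrx* allele, so an effect of the transgene and one of the deletion cannot be told apart. The whole tibia was pulverized, and osteoblastic cells, in which the recombinase acts, were therefore mixed with marrow and adjoining tissue.

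In the canonical pathway, sensors of foreign or misplaced nucleic acid induce type I interferon, which binds its receptor and activates JAK kinases. These phosphorylate STAT proteins, which join IRF9 to form a complex that binds the interferon-stimulated response element (ISRE) in ISG promoters. Interferon gamma acts through a related element, the gamma-activated site (GAS). In bone, type I interferon is known as a brake on osteoclast formation, and marrow myeloid cells are strong responders.

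The ISRE, the element bound by the complex above, was looked for in the promoters of these genes. Promoters were taken from RefSeq on GRCm38.p6 as 250 bases before to 50 bases after the transcription start. Promoters were found for 27 of the 36 ISGs, and *Dhx58*, *Zbp1*, *Oas2*, *Mx1*, *Mx2*, *Usp18*, *Parp14*, *Rtp4* and *Ifi27* were not analyzed in this way. The ISRE core, GAAANNGAA on either strand, was found in 16 of 27 ISGs (59.3%), against 2638 of the 27025 genes with a promoter (9.76%). At least 2 matches, overlapping ones included, were found in 9 ISGs (33.3%) and in 0.736% of all genes. The GAS core, TTCNNNGAA, was found in 6 ISGs (22.2%) and in 9.55% of all genes, and in *Bst2* it overlapped the ISRE match. A match is a description of these letters and not a measurement of binding. The 7 windows shown are all of ISGs with a match, and promoters without one, such as those of *Irf7* and *Tlr3*, are not shown. Each window runs 5′ to 3′ on the gene's strand over the 160 bases before the start. The ISRE core is in capitals (TTCNNTTTC where it lies on the other strand).
Ifit1 (chr19:34640729-34640888, plus strand): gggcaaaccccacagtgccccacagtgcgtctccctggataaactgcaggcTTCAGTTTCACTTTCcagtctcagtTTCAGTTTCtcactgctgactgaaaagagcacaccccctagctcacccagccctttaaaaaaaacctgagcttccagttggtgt
Ifit3 (chr19:34583369-34583528, plus strand): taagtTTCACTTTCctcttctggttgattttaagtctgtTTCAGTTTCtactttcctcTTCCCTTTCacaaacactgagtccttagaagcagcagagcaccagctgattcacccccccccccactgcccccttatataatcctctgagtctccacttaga
Isg15 (chr4:156200819-156200978, minus strand): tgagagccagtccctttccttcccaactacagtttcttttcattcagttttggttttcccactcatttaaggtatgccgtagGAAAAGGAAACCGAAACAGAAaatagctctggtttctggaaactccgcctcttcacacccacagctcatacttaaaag
Oas3 (chr5:120777660-120777819, minus strand): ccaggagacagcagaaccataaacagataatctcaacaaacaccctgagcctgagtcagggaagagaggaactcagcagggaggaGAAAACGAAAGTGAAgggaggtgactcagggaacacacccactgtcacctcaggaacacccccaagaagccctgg
Oas1a (chr5:120907526-120907685, minus strand): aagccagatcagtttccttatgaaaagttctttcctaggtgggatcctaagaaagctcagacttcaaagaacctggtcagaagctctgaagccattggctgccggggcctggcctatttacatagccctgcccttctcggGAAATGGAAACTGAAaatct
Rsad2 (chr12:26456453-26456612, minus strand): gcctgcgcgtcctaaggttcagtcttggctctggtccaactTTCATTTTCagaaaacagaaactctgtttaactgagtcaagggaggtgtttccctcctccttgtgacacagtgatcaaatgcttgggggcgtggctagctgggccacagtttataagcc
Bst2 (chr8:71537473-71537632, minus strand): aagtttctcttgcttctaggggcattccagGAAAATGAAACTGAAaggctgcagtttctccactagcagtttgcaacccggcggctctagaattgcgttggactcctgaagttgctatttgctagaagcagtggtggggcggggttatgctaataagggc
The matches of *Ifit1*, *Ifit3* and *Isg15*, 3 in each window, were the most numerous among the 7. *Rsad2* had 1.

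**Figure D1:**
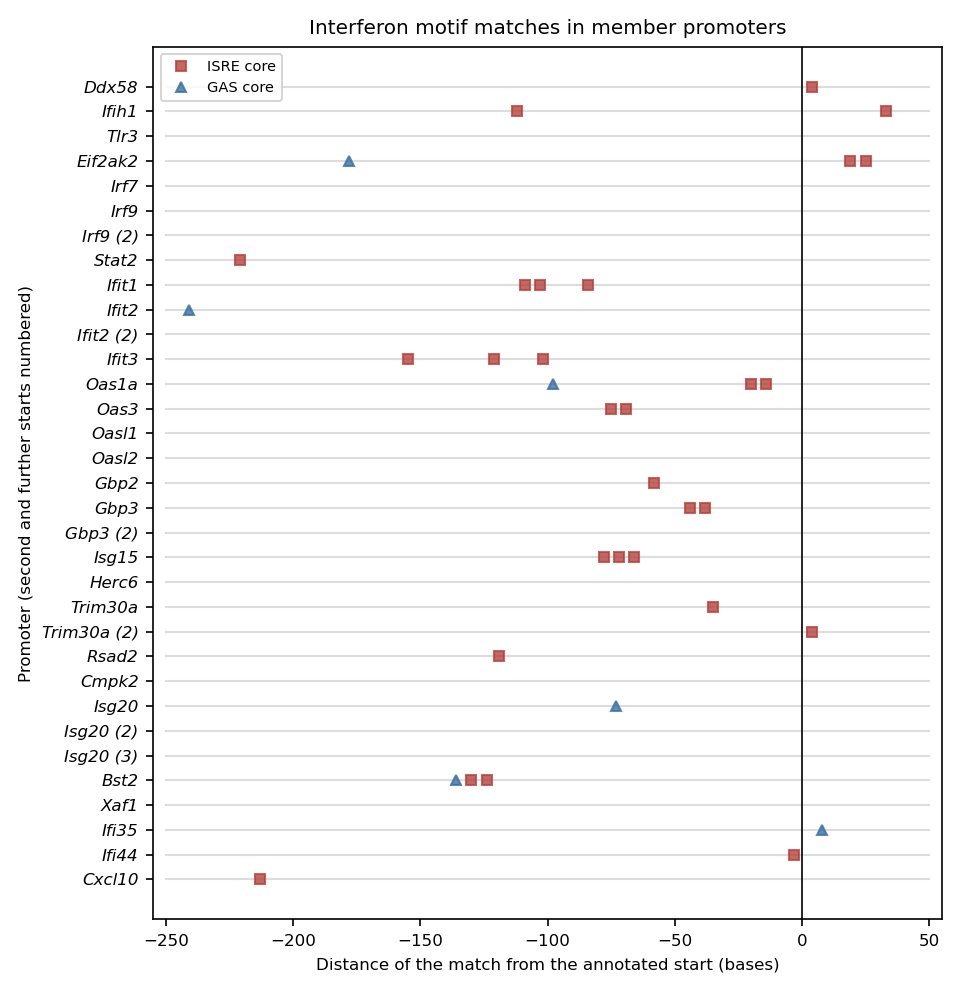
Positions of the ISRE core and the GAS core in the promoters of the ISGs, plotted against distance in bases from the transcription start. Matches were found in 16 of 27 ISGs for the ISRE core and in 6 of 27 for the GAS core.

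Each library held 50977777 to 70571655 reads on genes, so that 3 counts, the allowance given to a gene with no reads, amount to 0.0425 to 0.0588 CPM (counts scaled to library size). *Atrx* had 153, 166 and 171 CPM in Atrx-cKO replicates 1, 2 and 3 and 174, 166 and 165 CPM in control replicates 1, 2 and 3, with a log2 fold change of -0.047 (SE 0.080). A count over the whole gene does not show whether the floxed part was removed, so these values neither check nor go against the labels. The 6 osteoblast markers, all detected, summed to 62383 to 62744 CPM in Atrx-cKO and to 57865, 99286 and 89091 CPM in control replicates 1 to 3. *Col1a1* supplied most of each sum. Of these markers only *Ibsp* had groups without overlap, lower in Atrx-cKO (log2 fold change -0.51, SE 0.18), as 4.01% of all genes did. Control replicate 1 had the highest erythroid sum (5306 CPM against 2098 to 4252 CPM elsewhere) and the lowest osteoblast sum. Control replicate 3 stood apart in other lists. Its 5 skeletal muscle markers summed to 9868 CPM, against 507 to 1789 CPM in the other libraries. In the same library the 10 neutrophil markers (7553 CPM against 9146 to 13075), the 10 monocyte and macrophage markers (1047 against 1147 to 1274) and the 7 T and natural killer cell markers (36.5 against 43.6 to 49.97) had their lowest sums, and the 6 osteoclast markers their highest (2835 against 1382 to 2074). Every marker of these lists had counts. Single markers, looked at after the values were seen, went both ways in control replicate 3. *C1qa* was lowest there (88.8 CPM against 106 to 126), but *Cd68* was highest (99.6 against 64.7 to 89.7). *Nkg7* was lowest (20.8 against 27.1 to 36.4), but *Cd3d* (8.74) was above every Atrx-cKO library (1.10 to 5.79). In bulk tissue, fewer cells of a type and less RNA per cell cannot be told apart. Results on the ISGs are therefore given with and without control replicate 3.

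All 36 ISGs passed the filter on low counts, and none was called different between Atrx-cKO and control tibias. The thresholds were those of the study, an adjusted p under 0.05 together with a log2 fold change of 1 or more in either direction. The counts called were 0 higher and 0 lower, with adjusted p between 0.992 and 0.999 (edgeR quasi-likelihood test, Benjamini-Hochberg over 20636 genes). Over all genes tested, 0.0145% were called higher and 0% lower. DESeq2 also called 0 of the 36 (smallest adjusted p 0.743 for *Gbp2*), where it called 0.0885% of its genes. At an unadjusted p under 0.05 in edgeR, 3 ISGs were higher in Atrx-cKO (*Gbp2*, *Bst2* and *Rsad2*) and 0 were lower, against 1.59% and 2.05% of all genes.

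The fitted values nevertheless lay on one side. The log2 fold change (Atrx-cKO over control) was above 0 for 36 of 36 ISGs, against 51.2% of all genes, with a median of 0.26 (range 0.026 to 0.66, quartiles 0.19 and 0.39) beside 0.0050 over all genes. These genes share regulators and libraries and are not independent, so their number adds no replicates. The groups did not overlap, with every Atrx-cKO library above every control, for 3 ISGs (*Gbp2*, *Rsad2* and *Tlr3*), where 4.3% of all genes did the same. They did not overlap in the other direction for 0 ISGs, against 4.01% of all genes. By role, the median log2 fold change was 0.25 for the nucleic acid sensors, 0.24 for the transcription factors, 0.27 for the IFIT proteins, 0.26 for the OAS family, 0.27 for the dynamin-like GTPases, 0.30 for the ISG15 system, 0.18 for the other antiviral effectors and 0.43 for *Cxcl10* alone.

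**Figure D2:**
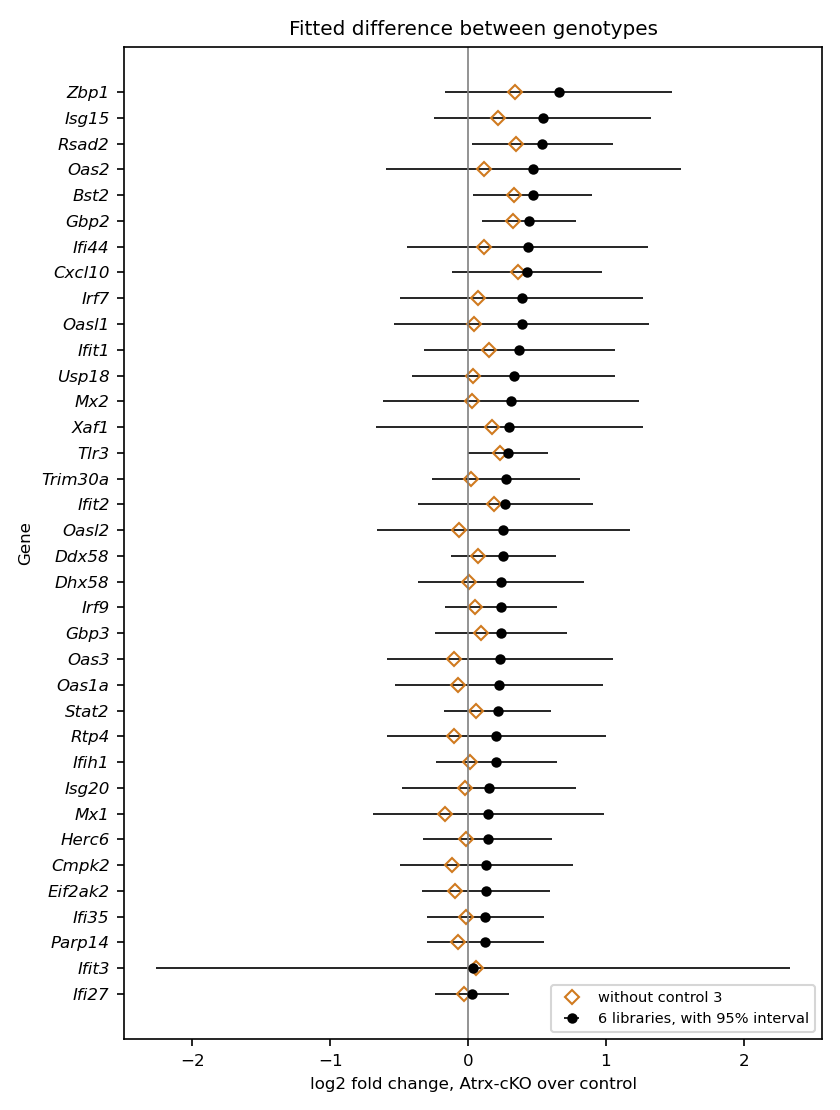
Log2 fold change of each ISG in Atrx-cKO over control tibias (horizontal axis) with its 95% interval from edgeR, ordered by size, and the value fitted without control replicate 3 (open diamonds). All 36 points lie above 0 with 6 libraries, and 24 do without control replicate 3.

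The sensors detect RNA or DNA that should not be in a cell. *Zbp1*, a sensor of left-handed nucleic acid that can trigger cell death, had the largest fitted difference of the 36. It stood at 11.8, 12.7 and 9.10 CPM in Atrx-cKO replicates 1 to 3 and at 6.61, 11.0 and 3.70 CPM in control replicates 1 to 3. Control replicate 2 lay within the Atrx-cKO range, and the log2 fold change was 0.66 (SE 0.35, 95% interval -0.16 to 1.48). *Tlr3*, the endosomal receptor for double-stranded RNA, had 14.0, 13.2 and 15.5 CPM in Atrx-cKO and 10.9, 13.2 and 10.9 CPM in control tibias. Its groups barely separated, since Atrx-cKO replicate 2 and control replicate 2 were equal to 3 digits, and its log2 fold change was 0.29 (SE 0.12, unadjusted p = 0.0511 in edgeR). The cytosolic RNA helicases showed smaller differences. *Ddx58*, which encodes RIG-I, had 57.4, 69.3 and 60.7 CPM in Atrx-cKO and 57.7, 60.1 and 39.2 CPM in control tibias (log2 fold change 0.26, SE 0.16). *Ifih1*, which encodes MDA5, and *Dhx58*, which encodes the regulator LGP2, had log2 fold changes of 0.21 (SE 0.19) and 0.24 (SE 0.26). For both, the highest library was Atrx-cKO replicate 2 and the lowest control replicate 3. *Eif2ak2*, the kinase PKR that halts translation, had 48.8, 51.4 and 42.6 CPM in Atrx-cKO and 47.6, 53.0 and 29.8 CPM in control tibias. Its log2 fold change was 0.13 (SE 0.20). Without control replicate 3 the log2 fold changes were 0.34 for *Zbp1*, 0.23 for *Tlr3*, 0.07 for *Ddx58*, 0.02 for *Ifih1*, 0.0073 for *Dhx58* and -0.09 for *Eif2ak2*.

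Of the transcription factors, *Irf7*, the amplifier of the type I response, varied most between mice of the same genotype. It had 33.3, 69.1 and 41.6 CPM in Atrx-cKO and 38.2, 52.2 and 19.4 CPM in control tibias. The range was 2.08-fold within Atrx-cKO and 2.69-fold within controls, beside a log2 fold change of 0.39 (SE 0.38, 95% interval -0.49 to 1.27). *Stat2*, a subunit of the ISRE complex, had 62.2, 77.4 and 57.9 CPM in Atrx-cKO and 57.5, 67.8 and 44.7 CPM in control tibias (log2 fold change 0.21, SE 0.17). *Irf9*, its DNA-binding subunit, had a log2 fold change of 0.24 (SE 0.18). Both were highest in Atrx-cKO replicate 2 and lowest in control replicate 3. Leaving out control replicate 3 gave log2 fold changes of 0.08 for *Irf7*, 0.06 for *Stat2* and 0.05 for *Irf9*.

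The IFIT proteins bind viral RNA that lacks the host's cap methylation, and their genes neighbor each other on chromosome 19. *Ifit1*, one of the genes with 3 ISRE cores, had 10.8, 17.7 and 11.5 CPM in Atrx-cKO and 8.99, 14.7 and 7.10 CPM in control tibias. The log2 fold change was 0.37 (SE 0.30, 95% interval -0.32 to 1.07), and replicates 2 were the highest in both genotypes. *Ifit2* had 8.14, 12.3 and 18.6 CPM in Atrx-cKO and 11.9, 10.8 and 9.68 CPM in control tibias (log2 fold change 0.27, SE 0.27). Both the lowest and the highest of its values were in Atrx-cKO tibias. *Ifit3*, also with 3 ISRE cores, behaved unlike the rest, with 0.633, 1.28 and 10.02 CPM in Atrx-cKO and 6.43, 1.17 and 4.05 CPM in control tibias. It spanned 15.8-fold within Atrx-cKO, and its log2 fold change of 0.04 (SE 0.99, 95% interval -2.26 to 2.34) leaves either direction possible. *Ifit3b*, a near-identical copy of it, had 7.27, 14.5 and 8.88 CPM in Atrx-cKO and 4.58, 10.3 and 4.73 CPM in control tibias, an order of libraries close to that of *Ifit1* (*Ifit3b* was singled out after its values were seen). How reads were divided between the copies is not given, so the level of *Ifit3* is uncertain. Fitted without control replicate 3, the log2 fold changes were 0.16 for *Ifit1*, 0.19 for *Ifit2* and 0.05 for *Ifit3*.

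The OAS enzymes sense double-stranded RNA and make the oligoadenylate that activates RNase L, an activity that OASL1 lacks. *Oas2* had 42.2, 50.6 and 23.5 CPM in Atrx-cKO and 24.3, 46.7 and 12.5 CPM in control tibias. Its 4.04-fold span over the 6 mice was wider than its log2 fold change of 0.47 (SE 0.46, 95% interval -0.60 to 1.54). *Oasl2* had its highest level in a control, with 43.2, 68.0 and 43.2 CPM in Atrx-cKO and 35.1, 71.4 and 22.5 CPM in control tibias (log2 fold change 0.26, SE 0.39). The other family members, *Oas1a*, *Oas3* and *Oasl1*, had log2 fold changes of 0.23 (SE 0.32), 0.23 (SE 0.35) and 0.39 (SE 0.40). All 5 were lowest in control replicate 3, and without that library their log2 fold changes were 0.11 for *Oas2*, -0.06 for *Oasl2*, -0.07 for *Oas1a*, -0.10 for *Oas3* and 0.04 for *Oasl1*. *Oas1a* has close paralogs in its cluster, and reads shared with them could not be separated here.

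The guanylate-binding proteins attack pathogen vacuoles and respond to interferon gamma as well as to type I interferon. *Gbp2* (chr3:142620602-142638008) had the smallest p of the 36. It stood at 17.5, 22.8 and 22.0 CPM in Atrx-cKO and 16.2, 16.8 and 12.9 CPM in control tibias. All 3 Atrx-cKO libraries were above all 3 controls, with means of 20.8 ± 2.84 and 15.3 ± 2.08 CPM (SD, n = 3 each) and a log2 fold change of 0.44 (SE 0.15, 95% interval 0.10 to 0.78, unadjusted p = 0.0170 and adjusted p = 0.992 in edgeR). Without control replicate 3 its log2 fold change was 0.32. *Gbp3*, beside it on chromosome 3, had a log2 fold change of 0.24 (SE 0.21). The myxovirus-resistance GTPases were lower in level and more variable. *Mx1*, which blocks influenza in the nucleus, had 9.82, 15.7 and 12.5 CPM in Atrx-cKO and 10.6, 17.6 and 6.01 CPM in control tibias (log2 fold change 0.15, SE 0.36). *Mx2* had a log2 fold change of 0.31 (SE 0.40). The values without control replicate 3 were 0.09 for *Gbp3*, -0.17 for *Mx1* and 0.03 for *Mx2*.

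*Isg15* encodes a ubiquitin-like protein that is attached to other proteins during the response. It had 14.0, 19.5 and 12.1 CPM in Atrx-cKO and 12.7, 13.2 and 5.31 CPM in control tibias. Atrx-cKO replicate 3 was below controls 1 and 2, and control replicate 3 was far below every other library. The log2 fold change was 0.54 (SE 0.34, 95% interval -0.25 to 1.33), and 0.22 without control replicate 3. *Usp18*, which removes ISG15 and damps signaling at the receptor, had 9.83, 14.7 and 9.74 CPM in Atrx-cKO and 10.1, 12.0 and 5.04 CPM in control tibias (log2 fold change 0.33, SE 0.32). *Herc6*, the mouse ligase for ISG15, and *Trim30a*, a ligase that restrains inflammatory signaling, had log2 fold changes of 0.14 (SE 0.20) and 0.27 (SE 0.23). These 4 genes were all highest in Atrx-cKO replicate 2 and lowest in control replicate 3, without which *Usp18* had 0.03, *Herc6* -0.02 and *Trim30a* 0.02.

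Among the other effectors, *Rsad2* (chr12:26442746-26456452) encodes viperin, which makes a chain-terminating nucleotide. It stood at 112, 112 and 113 CPM in Atrx-cKO and at 109, 65.9 and 57.1 CPM in control tibias. The Atrx-cKO libraries were nearly equal, control replicate 1 lay just below them and the other two controls well below. Means were 112 ± 0.454 and 77.5 ± 28.0 CPM (SD, n = 3 each), and the log2 fold change was 0.54 (SE 0.22, 95% interval 0.03 to 1.05, unadjusted p = 0.0420 and adjusted p = 0.992 in edgeR). *Isg20*, an exonuclease that degrades RNA, divided the controls in the same way, with 36.4, 31.9 and 31.1 CPM in Atrx-cKO and 45.1, 21.7 and 22.7 CPM in control tibias. Its log2 fold change was 0.15 (SE 0.27). Without control replicate 3 the log2 fold changes were 0.35 for *Rsad2* and -0.02 for *Isg20*. The 4 megakaryocyte markers divided them likewise, with sums of 1361, 1398 and 1316 CPM in Atrx-cKO and 1556, 846 and 825 CPM in control tibias, and so did the 7 erythroid markers (4252, 3235 and 3712 CPM, then 5306, 2098 and 2605 CPM). The part of these markers in the values of *Rsad2* and *Isg20* was not tested. Without control replicate 1, DESeq2 gave both genes an adjusted p under 0.05 (2.89e-12 for *Rsad2* and 0.000373 for *Isg20*), in a fit that did so for 516 of 18188 genes. Their log2 fold changes there, 0.87 and 0.58, stayed under the threshold of 1, and edgeR without the same library gave 0 ISGs an adjusted p under 0.05.

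*Bst2* (chr8:71534255-71537456) encodes tetherin, which holds budding virions on the cell surface. It had 41.4, 62.6 and 45.9 CPM in Atrx-cKO and 35.5, 43.0 and 29.6 CPM in control tibias. Only Atrx-cKO replicate 1 fell within the range of the controls. The log2 fold change was 0.47 (SE 0.19, 95% interval 0.04 to 0.90, unadjusted p = 0.0367 and adjusted p = 0.992 in edgeR), and 0.33 without control replicate 3. *Xaf1*, a promoter of apoptosis, had 34.4, 53.4 and 18.6 CPM in Atrx-cKO and 18.8, 43.5 and 24.0 CPM in control tibias (log2 fold change 0.30, SE 0.42). *Ifi44*, a cytoplasmic protein of the response, had a log2 fold change of 0.43 (SE 0.37). *Cmpk2*, a nucleotide kinase encoded beside *Rsad2*, had 22.1, 35.6 and 23.4 CPM in Atrx-cKO and 29.3, 28.8 and 15.8 CPM in control tibias, a different order from *Rsad2*. Its log2 fold change was 0.13 (SE 0.27). The remaining effectors *Parp14*, *Rtp4*, *Ifi35* and *Ifi27* had log2 fold changes of 0.13 (SE 0.18), 0.21 (SE 0.34), 0.13 (SE 0.18) and 0.03 (SE 0.12). *Ifi27*, a small membrane protein, was the steadiest of the effectors, with 70.7, 92.7 and 72.9 CPM in Atrx-cKO and 78.0, 81.3 and 72.7 CPM in control tibias. Of the exonic bases of *Ifi35*, 16.8% are shared with the antisense gene *Gm11626*, and whether the counting used strand is not given. The fit without control replicate 3 gave log2 fold changes of 0.18 for *Xaf1*, 0.12 for *Ifi44*, -0.12 for *Cmpk2*, -0.08 for *Parp14*, -0.10 for *Rtp4*, -0.02 for *Ifi35* and -0.03 for *Ifi27*.

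*Cxcl10* encodes the chemokine that draws T cells to sites of interferon action. It had 4.09, 4.22 and 3.50 CPM in Atrx-cKO and 2.23, 3.84 and 2.69 CPM in control tibias. Control replicate 2 lay inside the Atrx-cKO range, and the log2 fold change was 0.43 (SE 0.23, 95% interval -0.12 to 0.97). It was 0.36 without control replicate 3. Of its exonic bases, 5.91% are shared with *Art3* on the opposite strand.

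**Figure D3:**
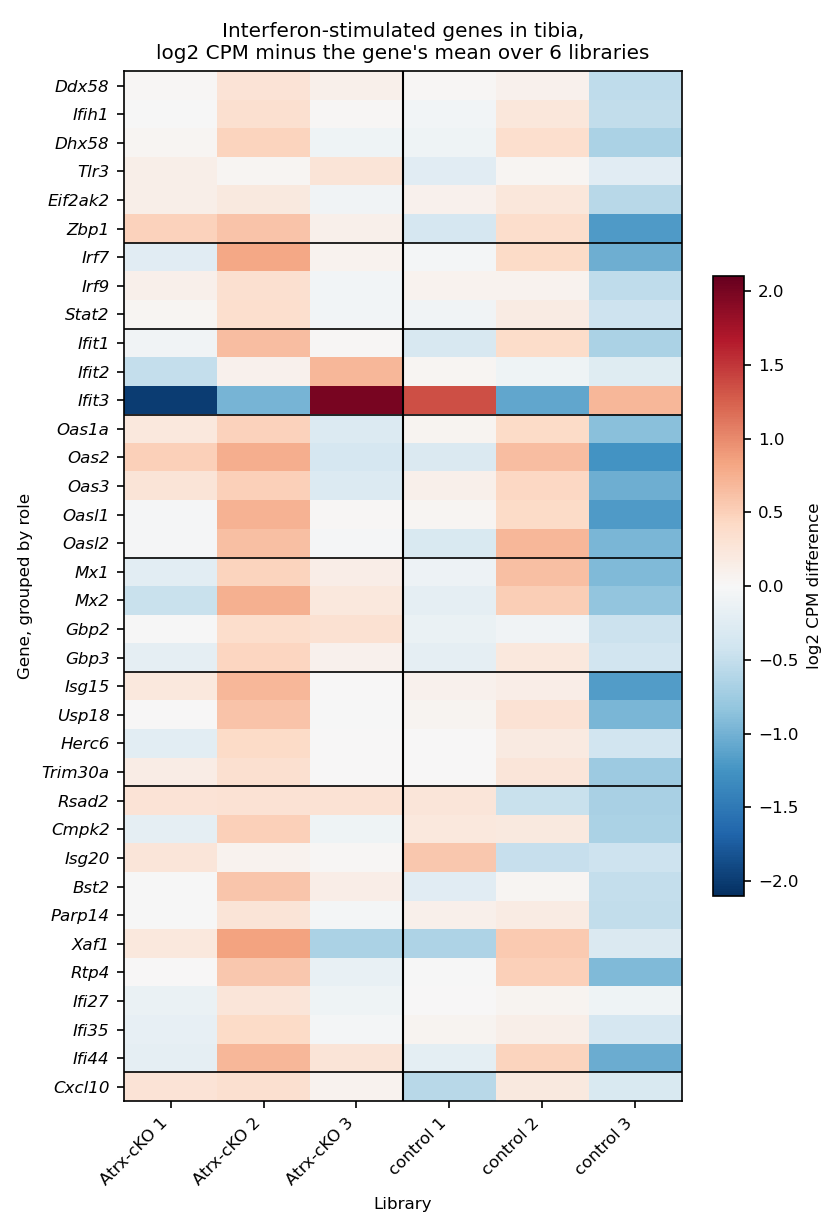
Level of each ISG in each library, as the log2 CPM minus the gene's mean over the 6 libraries (color). The column of control replicate 3 holds the lowest value for 29 of the 36 genes and that of Atrx-cKO replicate 2 the highest for 28.

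The ISGs moved together from mouse to mouse, and 2 libraries held most of the extremes. Control replicate 3 was the lowest of the 6 libraries for 29 of 36 ISGs (80.6%), against 20.6% of all genes tested. Atrx-cKO replicate 2 was the highest for 28 of 36 (77.8%), against 12.2% of all genes. Relative to the mean of the other controls on the log2 scale, control replicate 3 was lower for 35 of 36 ISGs, with a median shift of -0.66. Over all genes that shift had a median of 0.014, and 5% of genes lay below -0.47. Relative to the other Atrx-cKO libraries, Atrx-cKO replicate 2 was higher for 31 of 36 ISGs, with a median shift of 0.49, where 5% of all genes lay above 0.41. Within the controls, replicate 2 was the highest for 30 of 36 ISGs. These counts describe single mice, and nothing in the labels sets these mice apart from the others of their genotype.

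Mice of the same genotype accordingly differed more in these genes than in most. The SD of log2 CPM within genotypes had a median of 0.42 over the ISGs, beside 0.17 over all genes tested and 0.15 over the 11835 genes in the same range of mean level. For 33 of 36 ISGs it was above the upper quartile of those 11835 genes. *Tlr3* varied least (SD 0.13) and *Ifit3* most (1.41), followed by *Oas2* (0.77), *Xaf1* (0.69), *Oasl2* (0.64) and *Irf7* (0.63). Averaged over the 36 ISGs, log2 CPM was 4.40, 4.84 and 4.49 in Atrx-cKO and 4.40, 4.62 and 3.81 in control tibias, with a within-genotype SD of 0.34, and the groups overlapped.

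**Figure D4:**
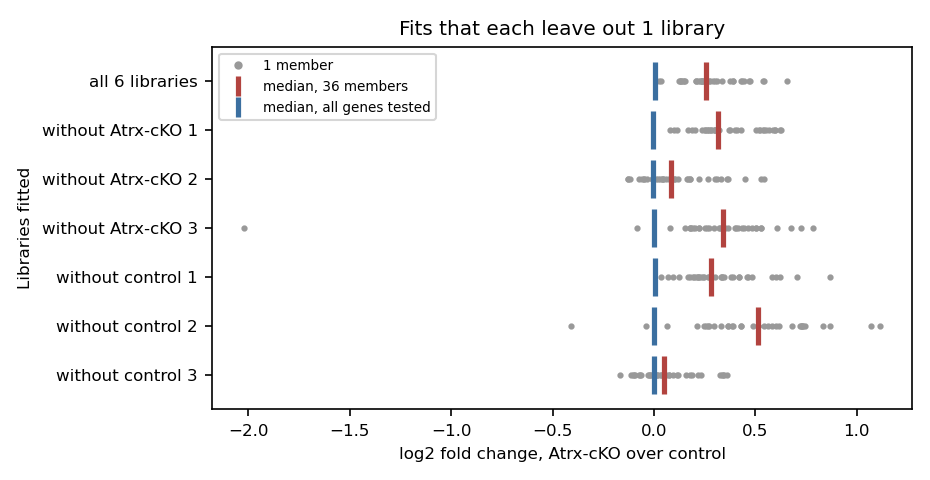
Log2 fold changes of the 36 ISGs in fits with all 6 libraries and with each library left out in turn, beside the median of all genes tested. The median of the ISGs is 0.26 with all libraries, 0.05 without control replicate 3 and 0.51 without control replicate 2.

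The size of the shift depended on which mice were compared. Without control replicate 3 the median log2 fold change of the ISGs was 0.05, and 24 of 36 were above 0 and 12 below. Without Atrx-cKO replicate 2 the median was 0.09, with 27 above 0. Without control replicate 2, the highest control, it was 0.51. Leaving out any of the other 3 libraries gave medians of 0.28 to 0.34. In each of these edgeR fits 0 ISGs had an adjusted p under 0.05. At an unadjusted p under 0.05, 9 ISGs were higher in Atrx-cKO without control replicate 2, and 0 were without control replicate 3, without Atrx-cKO replicate 2 or without Atrx-cKO replicate 3. *Zbp1* (0.34), *Cxcl10* (0.36), *Rsad2* (0.35), *Bst2* (0.33) and *Gbp2* (0.32) kept the largest log2 fold changes without control replicate 3, and none of these had an unadjusted p under 0.05 there. The muscle, neutrophil, monocyte and macrophage, and T and natural killer cell marker sums of control replicate 3 stand above, its 8 B cell markers summed to 222 CPM against 139 to 304 CPM elsewhere, and the part of these in its low ISG levels was not tested.

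Per length, the ISGs were neither silent nor dominant in the tibia. The CPM divided by the exon length in kilobases (RPKM) had means over the 6 libraries from 1.20 for *Mx2* to 53.2 for *Ifi27*. *Ifi27* and *Bst2* (47.6) stood above the rest, followed by *Rsad2* (21.9), *Isg15* (16.9), *Isg20* (16.9) and *Trim30a* (14.9). Neither *Ifi27* and *Bst2* nor *Isg15* and *Isg20* can be ordered, since their libraries overlapped. *Ifi27* ranged from 48.2 to 63.2 RPKM and *Bst2* from 32.8 to 69.3 RPKM. At the low end were *Cxcl10* (1.52), *Herc6* (1.504) and *Mx2*. All 36 were therefore detected in control as well as in Atrx-cKO tibias, the lowest count of any being 37, for *Ifit3* in Atrx-cKO replicate 1.

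**Figure D5:**
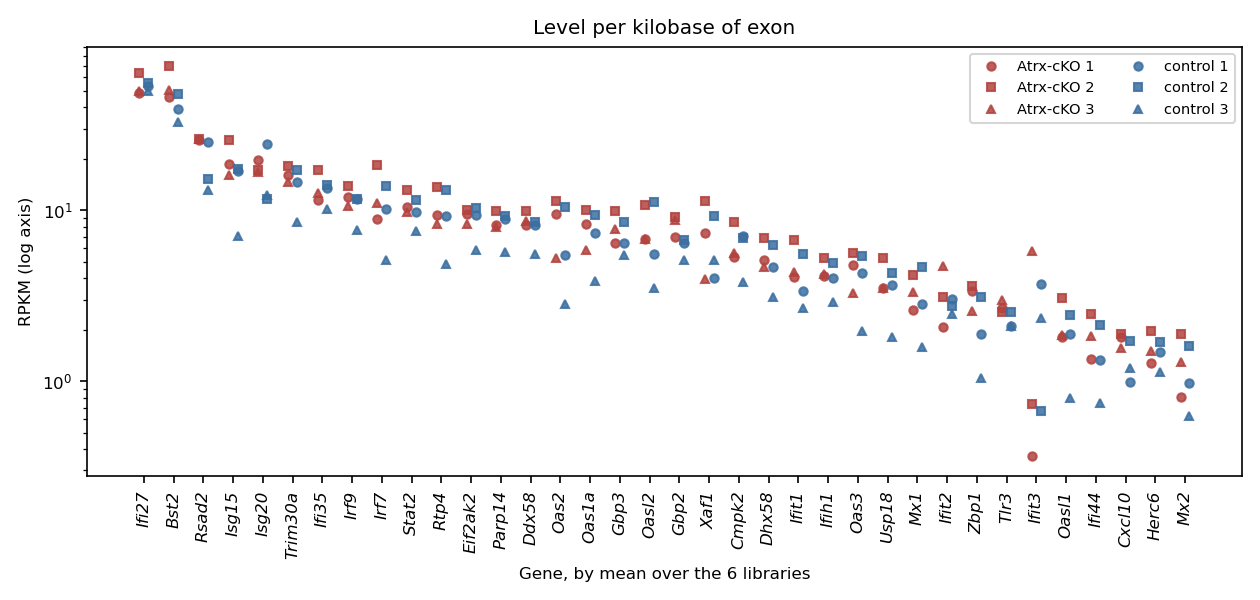
RPKM of each ISG in each library on a log axis, ordered by the mean over the 6 libraries. *Ifi27* (53.2) and *Bst2* (47.6) are at the top, *Mx2* (1.20) is at the bottom, and the genotypes overlap for 33 of the 36 genes.

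The interferons themselves were at or near the limit of detection. None of the 21 ligand genes passed the filter on low counts. *Ifnb1* had 0 counts in all 6 libraries, which allows up to 0.0588 CPM in the shallowest. The alpha, beta, epsilon, kappa, zeta and lambda genes had 0 to 8 counts in any library. *Ifng*, the product of T and natural killer cells, had 1, 25 and 1 counts in Atrx-cKO and 2, 3 and 2 counts in control tibias. The 25 counts were in Atrx-cKO replicate 2, the library with the highest level of 28 ISGs, and the part of *Ifng* in those levels was not tested. The T and natural killer cell markers of Atrx-cKO replicate 2 summed to 43.6 CPM, within the 36.5 to 49.97 CPM of the other libraries. *Nkg7* supplied 30.1 CPM of that sum, and single markers, looked at after the values were seen, went both ways. *Gzma* (5.50 CPM against 2.44 to 3.51) and *Klrb1c* (1.31 against 0.666 to 1.10) were highest in that library. *Cd3d* was lowest there (1.10 against 4.50 to 9.73), and the rest lay within the range of the other libraries. The 6 markers of plasmacytoid dendritic cells, the main producers of type I interferon, summed to 48.9 to 51.9 CPM in Atrx-cKO and to 52.1 to 62.1 CPM in control tibias, but *Cox6a2*, which striated muscle also expresses, supplied 20.4 CPM of the sum in control replicate 3 against 3.45 to 10.2 CPM elsewhere. Without it, a choice made after the values were seen, the other 5 summed to 41.7 to 46.0 CPM in Atrx-cKO and to 41.4 to 53.1 CPM in control tibias, and the groups overlapped. *Siglech*, the defining marker, had 11.3, 10.3 and 9.68 CPM in Atrx-cKO and 11.2, 11.3 and 6.36 CPM in control tibias, lowest in control replicate 3. The part of these cells in the ISG levels was not tested.

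Upstream of the ISGs, the receptors and the kinases and transcription factors behind them were close to equal between genotypes. The 12 genes of this list had a median log2 fold change of 0.02, with 9 above 0, and 0 were called. *Ifnar1*, a chain of the type I receptor, had 93.9 to 101 CPM in Atrx-cKO and 93.7 to 100 CPM in control tibias. *Jak1* had a log2 fold change of 0.10 (SE 0.08). The feedback inhibitors *Socs3* and *Socs1* had log2 fold changes of 0.42 (SE 0.27) and -0.17 (SE 0.19), the former through 55.3 CPM in Atrx-cKO replicate 1 against 25.5 to 29.6 CPM elsewhere.

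The 16 adaptors, kinases and IRFs that relay nucleic acid sensing had a median log2 fold change of 0.03, and 0 were called. *Tmem173*, which encodes STING, had 31.5, 21.3 and 23.1 CPM in Atrx-cKO and 21.5, 22.9 and 17.1 CPM in control tibias (log2 fold change 0.30, SE 0.17). *Irf1*, *Aim2* and *Tbk1* had log2 fold changes of 0.17 (SE 0.09), 0.25 (SE 0.17) and 0.09 (SE 0.07). Of the 10 genes that keep self nucleic acid from triggering sensors, 9 were tested, their median log2 fold change was 0.04 and 0 were called. *Morc3*, a repressor of interferon and of repeats, had 72.2, 75.3 and 76.0 CPM in Atrx-cKO and 70.4, 67.7 and 64.2 CPM in control tibias (log2 fold change 0.14, SE 0.07). *Rnaseh2b*, *Adar* and *Dnase2a* had log2 fold changes of 0.21 (SE 0.14), 0.11 (SE 0.14) and 0.08 (SE 0.11). *Trex1*, the gene of this list that was not tested, had 0 counts in every library, and 100% of its exonic bases are shared with *Atrip* on the same strand, so the count does not measure it. *Setdb1* and *Trim28*, which lay down and recruit heterochromatin, had log2 fold changes of -0.0068 (SE 0.07) and -0.04 (SE 0.09).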

How the data were processed

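Polyadenylated RNA of each tibia was sequenced in paired ends. The authors deposited raw counts per Ensembl gene, 1 table per mouse, without normalization. The submitters' processing notes name GRCm38 and DESeq2, while the aligner, the counting program and its strand setting are not given in the sources used here. The summary entries of each table (51.6% to 52.4% were reads on no feature) entered neither library sizes nor tests. GENCODE M21 named 55141 of the 55401 identifiers and gave the coordinates and exon lengths.

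Counts were fitted with edgeR 4.0.16 (TMM, filterByExpr, glmQLFit and glmQLFTest, genotype only) in R 4.3.3, with DESeq2 1.42.0 as the alternative. The SE was the log2 fold change divided by the square root of F, and intervals cover 95%. CPM and RPKM used TMM library sizes, and 0.5 CPM was added before logs of single libraries. The floor of 3 counts covers counting error only. Mice are described as separate animals, and libraries of a genotype differed by more than sampling noise (chi-square per degree of freedom 17.1 to 152). The smallest p that an exact permutation test could give with 3 mice per genotype is 0.1.

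Every ISG was named, with up to 4 genes of smallest p per pathway list, all ligands and *Atrx*, except for an item of a pathway list that is not reported here. *Ifnar1*, *Setdb1*, *Trim28*, *Ifit3b*, *Ifi213*, *Ube2l6*, *Phf11a*, *Psmb8* and *Gbp7* were named after their values were seen. The ISGs and lists were chosen with earlier results of these data known, and alternatives were fixed in the same knowledge.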

Additional observations from a re-analysis of the deposited data

How the results depend on the processing

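The 36 ISGs gave 0 calls in either direction in edgeR with TMM, RLE or upper quartile normalization, without the filter, with at least 10 counts in every library, with the replicate number as a block and without each library, and in DESeq2. Whether the replicate numbers pair the mice is not given in the labels. Over all genes, deviations of same-numbered mice from their genotype means had correlations of -0.0032, 0.11 and -0.10 (numbers 1, 2 and 3). Over the ISGs alone the correlations were -0.32, 0.85 and 0.58, so these values do not settle the pairing. With the replicate block, 9 ISGs were higher at an unadjusted p under 0.05 in place of 3, the median log2 fold change was 0.28, and *Ifit3* turned to -0.46. Fits in DESeq2 without each library were added after the data were seen. Over the edgeR and DESeq2 fits without 1 library, the median log2 fold change of the ISGs ran from 0.047 to 0.51, the number above 0 from 24 to 36, the number higher at an unadjusted p under 0.05 from 0 to 15, the number lower from 0 to 1 (*Ifit3* without Atrx-cKO replicate 3), and the number at an adjusted p under 0.05 from 0 to 2. Of the 119 other pathway genes tested, 0 to 1 had an adjusted p under 0.05 in these fits. The 15 are from DESeq2 without control replicate 2, and the 2 are *Rsad2* and *Isg20* in DESeq2 without control replicate 1. Among the 36 ISGs and the 16 pathway genes chosen by smallest p, the ones followed across these fits, the log2 fold change changed sign for 18. It ran from -0.092 to 0.30 for *Eif2ak2*, -0.083 to 0.52 for *Ifit2*, -2.03 to 0.62 for *Ifit3*, -0.070 to 0.51 for *Oas1a*, -0.099 to 0.54 for *Oas3*, -0.062 to 0.83 for *Oasl2*, -0.17 to 0.60 for *Mx1*, -0.036 to 0.72 for *Mx2*, -0.057 to 0.27 for *Herc6*, -0.13 to 0.28 for *Cmpk2*, -0.039 to 0.58 for *Isg20*, -0.075 to 0.25 for *Parp14*, -0.13 to 0.73 for *Xaf1*, -0.10 to 0.56 for *Rtp4*, -0.12 to 0.10 for *Ifi27*, -0.075 to 0.24 for *Ifi35*, -0.036 to 0.19 for *Adar* and -0.022 to 0.18 for *Dnase2a*. The median within-genotype SD was 0.39 with 2 CPM added before the log in place of 0.5. When the ISRE core had to be followed by A, 55.6% of the 27 ISGs with a promoter held it, against 3.99% of all genes with a promoter. On simulated counts edgeR recovered 66 of 100 genes changed 2-fold and 100 of 100 changed 4-fold. The simulation capped the variation between mice and changed only genes above a minimum mean count. The ISGs varied more within genotypes than most genes (median SD 0.42, against 0.17 over all genes tested). The recovery may therefore be lower for them. Their fitted differences were all smaller than 2-fold. The upper ends of their intervals passed a log2 fold change of 1 for some, such as *Oas2* (1.54), and not for others, such as *Gbp2* (0.78).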

Other observations

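A further 86 interferon-stimulated genes lie outside the 36, and 82 of them passed the filter on low counts. None was called in edgeR or DESeq2. Their median log2 fold change was 0.18, with 75 above 0 and 7 below, 7 were higher at an unadjusted p under 0.05 in edgeR (1.59% of all genes) and 8 had groups that did not overlap with Atrx-cKO above (4.3% of all genes). The 4 with the smallest p were *Iigp1*, *Gbp6*, *Cxcl9* and *Psmb9*, each with an adjusted p of 0.992 in edgeR. *Iigp1*, an immunity-related GTPase, had 30.5, 44.3 and 38.0 CPM in Atrx-cKO and 22.6, 29.1 and 19.6 CPM in control tibias, without overlap (log2 fold change 0.66, SE 0.18, unadjusted p = 0.00711 in edgeR). *Cxcl9*, a chemokine for T cells, had 18.1, 29.3 and 24.3 CPM in Atrx-cKO and 14.9, 17.4 and 9.26 CPM in control tibias (log2 fold change 0.79, SE 0.25). *Gbp6* and *Psmb9*, a subunit of the immunoproteasome, had log2 fold changes of 0.82 (SE 0.26) and 0.31 (SE 0.11). Without control replicate 3 the log2 fold changes were 0.53 for *Iigp1*, 0.55 for *Cxcl9*, 0.65 for *Gbp6* and 0.22 for *Psmb9*. With *Phf11a*, *Psmb8* and *Gbp7*, these are the 7 genes at an unadjusted p under 0.05, and all 7 had their lowest value in control replicate 3.

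Some genes of the wider list, singled out after their values were seen, divided the mice in other ways. *Ifi213*, a member of the PYHIN family of DNA-binding proteins, had 5.28, 0.350 and 0.289 CPM in Atrx-cKO and 6.71, 0.315 and 0.0210 CPM in control tibias, high in replicate 1 of both genotypes. *Ube2l6*, the conjugating enzyme for ISG15, had 65.3, 63.2 and 60.6 CPM in Atrx-cKO and 79.1, 41.8 and 41.4 CPM in control tibias. Its controls divided as those of *Rsad2* and *Isg20* did, with replicate 1 well above the others. That control was also above every Atrx-cKO library, as for *Isg20* but not for *Rsad2*.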
